A study of Rattus norvegicus with 9 samples.

Results

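Genes that cells switch on in response to interferon were compared in the right ventricle between sham-operated rats and rats with pulmonary artery banding (PAB), an operation that constricts the outflow tract and so puts a pressure load on that ventricle. The set was a list of 37 interferon response genes, each measured by the array feature that carries its symbol alone, and 33 of the 37 had such a feature. These were 33 of the 14506 genes that could be named in this way on the array. Each of the 33 had 1 feature. Samhd1, Xaf1, Parp14 and Nlrc5 had none and are not analysed here.

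All samples were from male SD rats, a common outbred laboratory strain, and 9 arrays were made, 3 in each of 3 groups. The sham-operated group had no banding. At 4 weeks after banding the hearts were sorted by the fibrotic area of the ventricle, with the PAB_F(-) or F- group below 6.5% and the PAB_F(+) or F+ group above it, so that the F+ and F- groups share the banding and were separated by fibrosis. The sources used here do not give the age of the animals, nor do they state that the replicates of a group are different animals. A p-value here sets a difference against the scatter of 3 arrays, which may be technical, and precision is limited by that small number.

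Interferons are secreted proteins that cells release on sensing viral or misplaced nucleic acid, and in the heart they are best known from viral myocarditis. Type I interferons act through a receptor of Ifnar1 and Ifnar2, whose kinases activate Stat2. A complex that holds Stat2 and Irf9 then binds the interferon-stimulated response element (ISRE) in the promoters of target genes. Interferon gamma, made by T and NK cells, acts through Ifngr1 and Ifngr2, and its signal reaches target genes at the gamma-activated site (GAS).

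The promoters of the set were looked up first, since these 2 elements are what its members are known to share and the list did not use sequence. Promoter windows of 250 bases before to 50 bases after the transcript start were taken from the RefSeq table of the rat assembly GRCr8, which held 26 of the 33 genes. Dhx58, Ifit1, Ifit2, Isg15, Mx2, Oas2 and Usp18 were not in it. The ISRE was searched as GAAA, any 2 bases and GAAA again, on both strands, and the GAS as TTCNNNGAA, which reads the same on both strands. An ISRE match stood in 15 of the 26 promoters (57.7%), against 3.92% of all 33469 promoters of the table. A GAS match stood in 6 of the 26 (23.1%), against 8.87% of all promoters. Ifitm3, Oas1a and Bst2 had both, and in Bst2 the 2 motifs overlapped. Stat2, Mx1, Oasl, Cmpk2, Ifi35, Herc6, Trim25 and Parp9 had neither, which says only that these letters are not in this window. A match is a description of the sequence and not evidence of a bound site.

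The following stretches, all read 5′ to 3′ on the strand of the gene in GRCr8, show the matches in genes whose values are described later, with at least 1 gene of most roles. Capitals mark the matches. An ISRE on the other strand appears as TTTC, 2 bases and TTTC.
Ifitm3 (ISRE and GAS, chr1:205541763-205541822, - strand): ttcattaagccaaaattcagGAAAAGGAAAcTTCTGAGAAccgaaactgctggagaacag
Bst2 (GAS and ISRE, overlapping, chr16:18255063-18255124, - strand): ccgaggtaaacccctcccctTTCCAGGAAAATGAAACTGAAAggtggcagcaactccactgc
Oas1a (2 overlapping ISRE, chr12:41330405-41330460, + strand): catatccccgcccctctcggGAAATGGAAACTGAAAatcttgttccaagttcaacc
Irf7 (ISRE on the other strand, chr1:205800063-205800112, - strand): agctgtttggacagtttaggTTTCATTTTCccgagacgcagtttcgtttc
Isg20 (ISRE, chr1:142239947-142239996, + strand): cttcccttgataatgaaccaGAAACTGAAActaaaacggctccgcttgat
Ifit3 (ISRE on the other strand, chr1:241527262-241527311, + strand): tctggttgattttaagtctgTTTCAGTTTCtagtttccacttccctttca
Rsad2 (ISRE on the other strand, chr6:48788238-48788287, - strand): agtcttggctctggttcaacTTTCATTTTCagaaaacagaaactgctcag
Ifih1 (ISRE, chr3:67683998-67684047, - strand): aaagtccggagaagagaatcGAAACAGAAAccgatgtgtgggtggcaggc
Gbp2 (ISRE on the other strand, chr2:234005676-234005725, + strand): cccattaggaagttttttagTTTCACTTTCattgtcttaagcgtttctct
Gbp5 (ISRE on the other strand, chr2:233910923-233910972, + strand): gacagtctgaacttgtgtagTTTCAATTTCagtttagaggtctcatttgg
Tap1 (ISRE on the other strand, chr20:4668635-4668684, - strand): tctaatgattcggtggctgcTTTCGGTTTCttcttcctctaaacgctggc
Tap2 (ISRE, chr20:4652308-4652357, - strand): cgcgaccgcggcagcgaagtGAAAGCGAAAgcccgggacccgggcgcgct
Irf1 (GAS, chr10:38417773-38417821, + strand): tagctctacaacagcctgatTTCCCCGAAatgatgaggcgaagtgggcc
Irf9 (GAS, chr15:33065717-33065765, + strand): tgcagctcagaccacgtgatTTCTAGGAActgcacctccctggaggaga
Irf8 (2 GAS, chr19:65699084-65699151, + strand): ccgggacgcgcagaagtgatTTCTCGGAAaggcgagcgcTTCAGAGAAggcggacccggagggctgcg
The same core, GAAACTGAAA, was found in Isg20, Dtx3l, Oas1a and Bst2, and on the other strand in Ifit3 and Ifi44. Counted from the transcript start, the ISRE matches lay between -147 and -7, except that of Dtx3l, at 11 to 20, and the second of Ifi44, at 27 to 36.

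**Figure D1:**
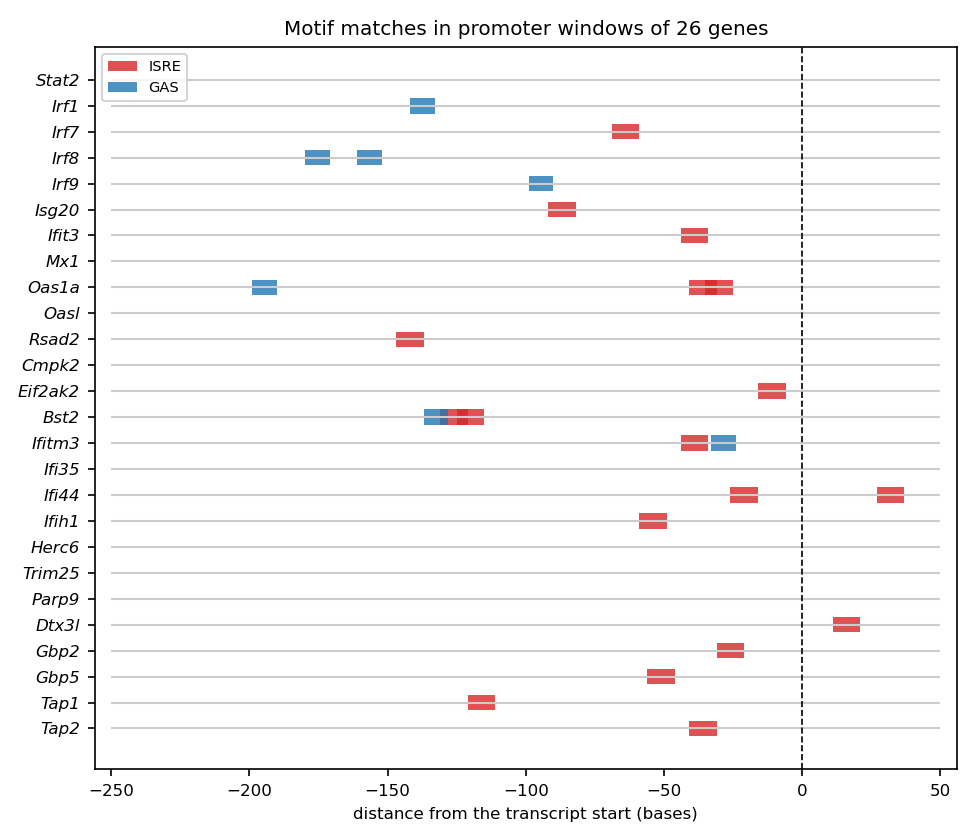
Positions of ISRE matches (red) and GAS matches (blue) in the promoter windows of the 26 genes, 1 line per gene, with the distance from the transcript start in bases on the x axis and the start as a dashed line. ISRE matches stand in 15 genes and GAS matches in 6, and 8 lines are empty.

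By their deposited values, the interferon response genes lay close to the same level in all 3 groups, and none of the 33 differed between groups after adjustment. Values are signal intensities as deposited, whose scale the sources used here do not state. Differences are of mean log2 values, from limma, a linear model with a shared estimate of spread, fitted over all 29215 features with Benjamini-Hochberg adjustment. Between the F+ and F- groups 0 of 33 passed an adjusted p of 0.05, where 0.00342% of all features did (1 feature). At an unadjusted p under 0.05 there were 2 members, against 7.41% of all features. Between the F- and sham-operated groups 0 of 33 passed, as did 0% of all features, and 2 members had an unadjusted p under 0.05, against 6.03%. Between the F+ and sham-operated groups 0 of 33 passed, again with 0% of all features, and 2 members had an unadjusted p under 0.05, against 7.4%. These shares of the members are close to the background. The lowest adjusted p of any member was 0.623, 0.743 and 0.616 in the 3 comparisons, in the same order.

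The differences were small on the deposited scale. Against each other, F+ and F- differed by -0.15 to 0.096 on the log2 scale, F- and sham by -0.14 to 0.25, and F+ and sham by -0.14 to 0.10. In each comparison 32 of 33 members lay within 1.1-fold, and the exception was Usp18 in the first and second and Trim25 in the third. The deposited values ran from 1.0 to 190.4, and their square roots from 1.0 to 13.8, which is the span usual for log2 signals. If they are squares of log2 signals, the fold changes are larger and the count within 1.1-fold does not hold. They then run from 0.789 (Usp18) to 1.28 (Ifitm3) between F+ and F-, and from 0.75 (Trim25) to 1.5 (Usp18) between F- and sham. Between F+ and sham they run from 0.746 (Trim25) to 1.29 (Ifitm3). For the members named with full statistics this second reading is given as "read as squares".

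**Figure D2:**
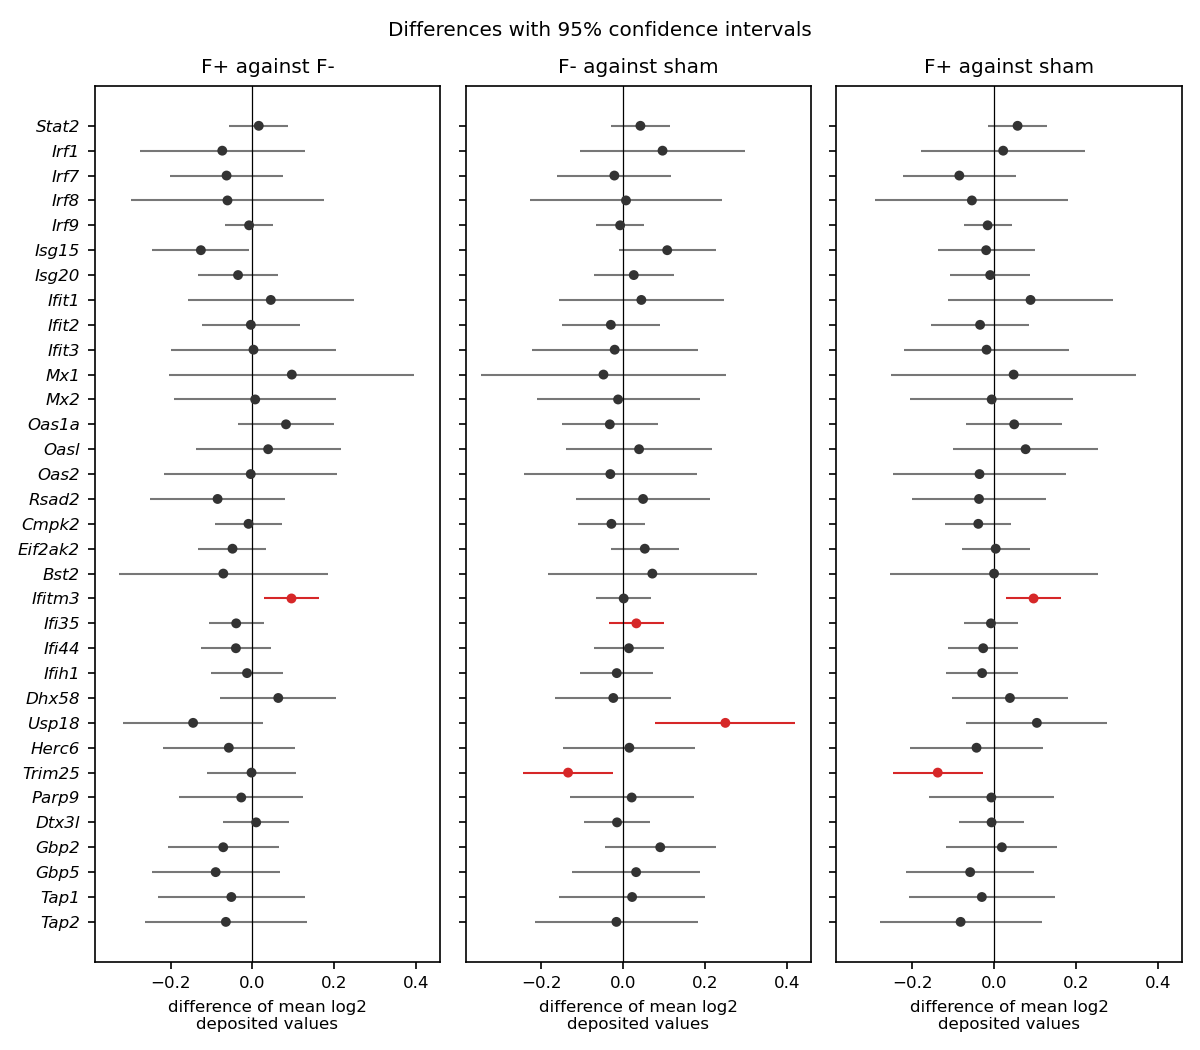
Difference of mean log2 deposited values for each of the 33 genes in the 3 comparisons, with 95% confidence intervals from limma, red where every array of one group lay above every array of the other. The points range from -0.15 to 0.25, and most intervals cross 0.

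The direction of the set changed when single arrays were left out. Against the F- group, 10 members had a higher and 23 a lower mean in the F+ group, with a median difference of -0.027 (all features -0.0023), where 48.2% of all features were higher. Without F+ array 2 the counts were 19 higher and 14 lower, with a median of 0.010. Against the sham-operated group, 19 members were higher and 14 lower in the F- group (median 0.013, all features -0.0025), where 48.1% of all features were higher. The count of higher members ran from 11 to 23 when each array was left out in turn, with 11 without sham array 2 and 23 without sham array 1 or F- array 3. For F+ against sham, 11 were higher and 22 lower (median -0.0099, all features -0.0035), where 47.4% of all features were higher. That split became 15 higher and 18 lower after quantile normalization and after median centring, and 22 higher and 11 lower without F+ array 2. The F+ and sham-operated comparisons share arrays with the others and are not independent of them.

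F+ array 2 stood apart from the rest for these genes. It had the lowest value of the 9 arrays for 18 of the 33 members (54.5%), and for 11.4% of all features. On it 30 of 33 members lay below their own mean over the 9 arrays (90.9%, all features 50.8%), with a median deviation of -0.085 on the log2 scale (all features -0.00060). Ifit1 and Ifitm3 lay above their mean there, and Irf9 at it. Compared with its own group alone, 25 members were below both other F+ arrays, as were 29.4% of all features. F+ array 1 went the other way, with 26 of 33 members above their mean and a median deviation of 0.049. In the other groups F- array 3 and sham array 2 were the low arrays, each with 25 of 33 members below their mean (75.8%). On F- arrays 1 and 2, 24 members each lay above it. Over all features the medians of the arrays ran only from 33.4 to 33.9, with F+ array 2 at 33.5.

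**Figure D3:**
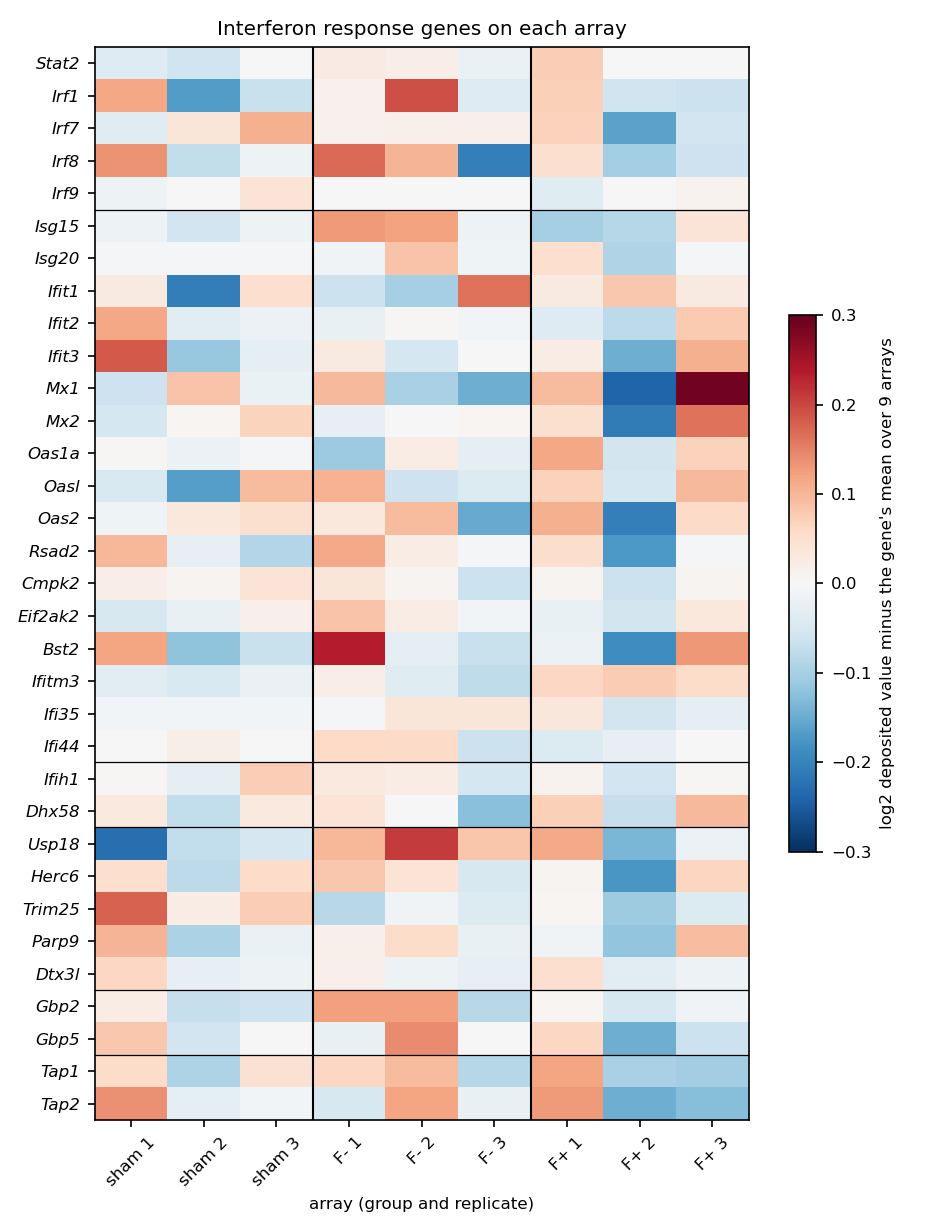
Heat map of the 33 genes (rows, grouped by role with thin lines) on the 9 arrays (columns), coloured by log2 deposited value minus the gene's mean over the 9 arrays, from blue (-0.3) to red (0.3). F+ array 2 is blue in 30 of the 33 rows, while the arrays of one group often differ in colour among themselves.

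Genes with and without a motif in the promoter both lay low on that array. On F+ array 2, 14 of the 15 genes with an ISRE match were below their mean, with a median deviation of -0.090, and so were 10 of the 11 genes without one, with a median of -0.065. Of the genes in the promoter table, the 6 with a GAS match had 4 below the mean and the 20 without had 20. Between the F+ and F- groups, 11 of 15 genes with an ISRE match and 8 of 11 without were lower, with medians of -0.049 and -0.0098. These are descriptions with no test.

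The transcription factors of the set carry the signal of the receptors to the promoters. Stat2, a subunit of the complex that binds the ISRE, had values of 53.4, 52.6 and 54.8 in the sham-operated group, 55.8, 55.6 and 54.1 in the F- group, and 57.7, 54.8 and 54.8 in the F+ group. The F+ arrays were at or above the highest sham array, while the banded groups overlapped. Its difference between the F+ and sham-operated groups was 0.057 (SE 0.031, adjusted p = 0.707, limma), 1.04-fold, or 1.11-fold read as squares, and it was 0.032 without F+ array 1.

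Irf7, which drives the transcription of type I interferon genes, was at 49.6, 52.2 and 54.8 in the sham-operated group, at 51.3, 51.4 and 51.4 in the F- group, and at 53.4, 45.5 and 48.9 in the F+ group. The lowest value was again that of F+ array 2, and the 3 groups overlapped. Between the F+ and sham-operated groups Irf7 differed by -0.085 (SE 0.060, adjusted p = 0.756, limma), 0.943-fold, or 0.866-fold read as squares. Leaving out F+ array 1 gave -0.15, F+ array 2 gave -0.030, and sham array 3 gave -0.050. Irf1, which responds mainly to interferon gamma and has a GAS match in its promoter, was at 57.5, 47.3 and 50.7 in the sham-operated group, at 53.6, 60.7 and 51.7 in the F- group, and at 55.8, 50.9 and 50.8 in the F+ group. Its highest array was F- array 2. Irf8, a factor of myeloid cells, ranged from 35.3 to 45.8, and both of these values came from the F- group. Irf9 was among the steadiest members, at 51.8 to 54.6, with 5 of the 9 arrays at 53.1. Of the 5 factors, 1 was higher in the F+ than in the F- group (median -0.061) and 3 were higher in the F- than in the sham-operated group (median 0.0064).

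The largest role group was the antiviral effectors, with 17 of 19 listed genes measured. Ifitm3, a membrane protein that blocks the entry of viruses from endosomes, was the only member whose F+ arrays all lay above all F- arrays. Its values were 122.6, 123.7 and 121.9 on the F+ arrays, 119.0, 114.5 and 111.3 on the F- arrays. The sham arrays were at 114.9, 113.7 and 115.9. All F+ values exceeded the 6 others, and the F- and sham values overlapped. Ifitm3 was one of few members for which F+ array 2 was not low: there it was the highest of the 9 arrays. The difference between the F+ and F- groups was 0.095 (SE 0.029, 95% confidence interval 0.028 to 0.16), 1.07-fold, or 1.28-fold read as squares. This had an unadjusted p of 0.0119 and did not pass after adjustment (adjusted p = 0.623, limma). Against the sham-operated group the difference was 0.096 (SE 0.029, adjusted p = 0.616, limma), 1.07-fold, or 1.29-fold read as squares, and it shares the F+ arrays with the first. For the first comparison 1 of 33 members did not overlap between the groups, against 9.74% of all features. Ifitm3 is expressed by many cell types and belongs to a family of similar genes, and which copies its probes read was not tested.

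Isg15, a ubiquitin-like protein that is attached to other proteins, went the other way between the F+ and F- groups. It was at 31.6, 30.7 and 31.6 in the sham-operated group, at 34.9, 34.7 and 31.6 in the F- group, and at 29.8, 30.1 and 32.8 in the F+ group. F- arrays 1 and 2 were above the other 7, and F- array 3 was at the sham level, so that the groups overlapped. The F+ group differed from the F- group by -0.13 (SE 0.051, 95% confidence interval -0.25 to -0.0081, adjusted p = 0.671, limma), 0.916-fold, or 0.841-fold read as squares. The F- group differed from the sham-operated group by 0.11 (SE 0.051, adjusted p = 0.743, limma), 1.08-fold, or 1.16-fold read as squares.

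Oas1a, an oligoadenylate synthetase whose product activates the antiviral RNase L, was at 39.6, 39.0 and 39.4 in the sham-operated group, at 36.6, 40.1 and 38.7 in the F- group, and at 42.8, 38.0 and 41.4 in the F+ group. F+ arrays 1 and 3 had the highest values and F+ array 2 lay within the F- range. The difference between the F+ and F- groups was 0.082 (SE 0.050, adjusted p = 0.732, limma), 1.06-fold, or 1.13-fold read as squares. Leaving out F+ array 1 gave 0.045, leaving out F- array 1 gave 0.046, and leaving out F+ array 2 gave 0.13. Oas1a is one of several near-identical genes in rodents, so its probes may read more than 1 of them.

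Among the other effectors, Ifi35 was at 31.4 on all 3 sham arrays and at 31.5, 32.4 and 32.4 in the F- group. These did not overlap, although F- array 1 was higher by the smallest step of the deposited values. The F+ arrays of Ifi35 were at 32.3, 30.4 and 31.0, on both sides of the sham value. Mx1, a dynamin-like GTPase that traps viral particles, was the most variable member, with an SD within groups of 0.18 on the log2 scale. Its values were 33.9, 26.9 and 38.8 in the F+ group, which holds both the lowest and the highest of the 9 arrays. Mx2 in the same group was at 40.1, 33.5 and 43.4, with the lowest and highest on the same arrays as Mx1. Bst2, a protein that tethers budding virus to the cell surface, ranged from 25.6 on F+ array 2 to 34.3 on F- array 1. Rsad2, which makes a chain-terminating nucleotide, ranged from 35.9 on F+ array 2 to 43.8 on F- array 1.

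The arrays of the 3 groups overlapped for the remaining effectors. Ifit1, Ifit2 and Ifit3, which bind viral RNA, ranged from 15.3 to 19.8, from 53.7 to 61.4 and from 29.6 to 37.2. Ifit1 was the only member among the dimmest 33.3% of all features. Oasl ranged from 37.0 to 44.6 and Oas2 from 26.4 to 32.8. Isg20, an exonuclease, ranged from 46.5 to 52.5, Cmpk2, a nucleotide kinase, from 46.3 to 49.8, and Eif2ak2, the RNA-activated kinase that halts translation, from 50.8 to 56.0. Ifi44 ranged from 49.9 to 54.4. Isg20 was at 49.3 on all 3 sham arrays. In all, 7 of the 17 effectors were higher and 10 lower in the F+ than in the F- group (median -0.0043), and 10 were higher in the F- than in the sham-operated group (median 0.013).

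The RNA sensors of the set, which detect viral RNA in the cytoplasm, showed no order of the groups. Ifih1 was at 49.8, 48.7 and 52.3 in the sham-operated group, at 50.7, 50.5 and 47.9 in the F- group, and at 50.1, 47.8 and 49.8 in the F+ group. Dhx58 was at 27.2, 25.3 and 27.2, at 27.4, 26.6 and 24.4, and at 28.0, 25.4 and 28.5 in the same order. In both genes the lowest F+ array was F+ array 2 and the lowest F- array was F- array 3.

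The enzymes of ISG15, ubiquitin and ADP-ribose modification held the members with the largest differences. Usp18, which removes ISG15 from proteins and dampens signalling from the type I receptor, was at 38.7, 43.0 and 43.7 in the sham-operated group, at 48.5, 52.4 and 48.0 in the F- group, and at 49.0, 41.2 and 44.7 in the F+ group. Every F- array was above every sham array, and the F+ arrays spread over both ranges. The F- group differed from the sham-operated group by 0.25 (SE 0.074, 95% confidence interval 0.077 to 0.42), 1.19-fold, or 1.5-fold read as squares. The unadjusted p was 0.0104 and the result did not pass after adjustment (adjusted p = 0.743, limma). With each array left out in turn the difference ranged from 0.19 to 0.28. Between the F+ and F- groups Usp18 differed by -0.15 (SE 0.074, 95% confidence interval -0.32 to 0.027, adjusted p = 0.692, limma), 0.904-fold, or 0.789-fold read as squares, and by -0.084 without F+ array 2.

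Trim25, a ubiquitin ligase that activates an RNA sensor, was lower on every banded array than on every sham array. It was at 86.6, 77.8 and 80.6 in the sham-operated group, at 72.3, 76.1 and 74.5 in the F- group, and at 76.9, 71.2 and 74.5 in the F+ group. The highest banded array, F+ array 1, lay just below the lowest sham array, and the F- and F+ arrays overlapped. The F- group differed from the sham-operated group by -0.14 (SE 0.047, 95% confidence interval -0.25 to -0.026, adjusted p = 0.743, limma), 0.911-fold, or 0.75-fold read as squares. The F+ group differed from it by -0.14 (SE 0.047, 95% confidence interval -0.25 to -0.028, adjusted p = 0.633, limma), 0.909-fold, or 0.746-fold read as squares. The 2 comparisons share the sham arrays. With each array left out in turn, the first ran from -0.17 to -0.092 and the second from -0.17 to -0.095. Without sham array 1 the first was -0.092. With Usp18 and Ifi35, Trim25 made 3 of 33 members that did not overlap between the F- and sham-operated groups, against 9.79% of all features. With Ifitm3 it made 2 of 33 between the F+ and sham-operated groups, against 12.2%.

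**Figure D4:**
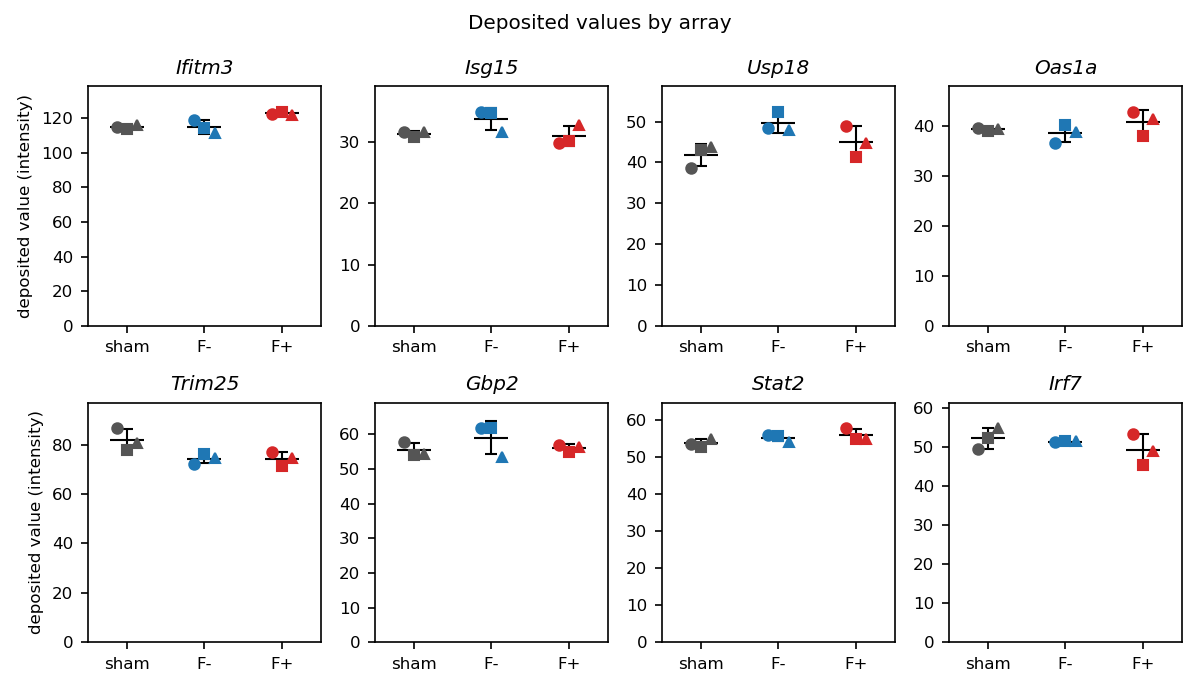
Deposited values (intensity, y axis from 0) of the 8 genes given with full statistics, with 1 point per array (circle, square and triangle for replicates 1, 2 and 3), and the mean and SD of the 3 arrays in black. The F+ points of Ifitm3 lie above all others, and the sham points of Trim25 lie above all banded ones, by steps that are small beside the level.

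Herc6, the ligase that attaches ISG15 in rodents, was at 58.7, 53.7 and 58.9 in the sham-operated group, at 59.9, 58.3 and 54.8 in the F- group, and at 57.0, 50.2 and 59.3 in the F+ group. Its low arrays were sham array 2, F- array 3 and F+ array 2, the same arrays on which most members were low. Parp9 and Dtx3l, partners in 1 complex, ranged from 45.7 to 53.2 and from 35.4 to 37.8.

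The guanylate-binding proteins, GTPases that attack the vacuoles of intracellular pathogens, respond strongly to interferon gamma. Gbp2 was at 57.6, 54.0 and 54.3 in the sham-operated group, at 61.7, 61.7 and 53.5 in the F- group, and at 56.9, 54.8 and 56.3 in the F+ group. F- arrays 1 and 2 were above the rest, and F- array 3 was the lowest of all 9. The difference of the F- from the sham-operated group was 0.090 (SE 0.058, 95% confidence interval -0.046 to 0.23, adjusted p = 0.753, limma), 1.06-fold, or 1.18-fold read as squares. It was 0.056 without F- array 1 or F- array 2 and 0.16 without F- array 3. Gbp5 was at 61.2, 55.6 and 57.9, at 56.9, 63.8 and 57.9, and at 60.4, 52.2 and 55.3 in the same order of groups, with its highest value on F- array 2 and its lowest on F+ array 2.

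Tap1 and Tap2 together form the transporter that feeds peptides to class I molecules. Tap1 was at 52.0, 47.0 and 51.7 in the sham-operated group, at 52.3, 53.5 and 47.2 in the F- group, and at 54.4, 46.8 and 46.6 in the F+ group. Tap2 was at 48.7, 43.4 and 44.0, at 42.8, 48.1 and 43.6, and at 48.4, 40.0 and 40.5 in the same order. Both genes had F+ array 1 far above F+ arrays 2 and 3, and the groups overlapped in each comparison.

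The arrays of 1 group differed among themselves in most of these genes. The median SD within groups was 0.080 on the log2 scale for the members and 0.063 for all features, and 22 of the 33 were above that of all features. After Mx1 the most variable were Bst2 and Irf8, with SDs of 0.15 and 0.14, and the steadiest were Irf9, Ifi35 and Ifitm3, with 0.022, 0.029 and 0.030. For 9 members 3 or more arrays carried exactly the same value, as for 39.4% of all features and the SD of 0 of Isg20 and Ifi35 in the sham-operated group and of Irf9 in the F- group comes from such ties.

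The upstream pathway was measured in part, with features for 44 of 65 listed symbols, a few of which are older and newer names of 1 gene, and 0 of the 44 passed after adjustment in any comparison. At an unadjusted p under 0.05 there were 4 between the F+ and F- groups, against 7.41% of all features, 3 between the F- and sham-operated groups, against 6.03%, and 7 between the F+ and sham-operated groups, against 7.4%. Of the 44, 3 were higher and 3 lower without overlap between F+ and F-, against 9.74% of all features. Between F- and sham 4 were higher and 2 lower without overlap (all features 9.79%). Between F+ and sham 7 were higher and 3 lower (all features 12.2%). Of the ligands 5 of 11 were measured. Ifnb1 ranged from 16.4 to 18.8 and Ifng from 21.0 to 24.2, with overlapping groups. Ifna4, the ligand with the smallest p, ranged from 24.2 to 27.7, and its groups overlapped too.

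Of the receptor genes Ifnar1 was at 65.9 to 69.0, with overlapping groups. Ifngr1 was at 88.2, 91.0 and 93.4 in the F+ group and at 87.8, 86.7 and 87.4 in the F- group, which did not overlap, while sham arrays reached 89.6. Ifngr2 was at 78.8, 77.4 and 76.6 in the F+ group and at 72.8, 73.2 and 73.5 in the sham-operated group, a difference of 0.085 (adjusted p = 0.616, limma). Of the 8 signalling genes measured, 6 were higher in the F+ than in the F- group (median 0.052). Against the sham-operated group 6 were higher too (median 0.051). Jak1, Jak2 and Stat3, which serve many cytokine receptors besides those of interferon, had F+ values above the sham values on every array. Socs1 had F+ values below them on every array. Stat3 was at 104.6, 108.9 and 106.5 against 99.5, 97.7 and 97.1, a difference of 0.12 (adjusted p = 0.616, limma), and Jak2 differed by 0.086 (adjusted p = 0.633, limma).

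Of the 12 sensing genes measured, 8 were higher in the F+ than in the F- group (median 0.039). Against the sham-operated group 9 were higher (median 0.042). Tlr7 had the largest difference of the 44 pathway genes in both comparisons, 0.23 (adjusted p = 0.67, limma) and 0.28 (adjusted p = 0.616, limma). It was at 45.7, 53.1 and 51.9 in the F+ group, at 47.3, 44.0 and 37.5 in the F- group and at 41.7, 42.2 and 40.2 in the sham-operated group. Ikbke, a kinase that activates interferon regulatory factors, had a difference of F+ from F- of 0.14 (adjusted p = 0.481, limma). It was at 38.0, 35.8 and 36.9 in the F+ group, at 33.4, 33.9 and 33.5 in the F- group and at 35.1, 35.5 and 35.2 in the sham-operated group, and no 2 of the groups overlapped. Adar, which edits double-stranded RNA, was at 67.6, 67.8 and 67.0 in the F+ group and at 73.1, 71.6 and 70.3 in the sham-operated group, a difference of -0.087 (adjusted p = 0.616, limma).

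The other targets of interferon gamma, of which 15 of 19 were measured, were lower in the F+ than in the F- group in all 15 cases by their means, with a median of -0.059, though none passed after adjustment. For Ciita the difference was only -0.00022, and on the square root scale or without a transformation 14 of 15 were lower. Without F- array 2 the count was 12 of 15, with a median of -0.016. For F- against sham, 11 of the 15 were higher (median 0.049), and for F+ against sham 6 were (median -0.036). The first median was 0.015 without F- array 2, and the second became -0.016 when sham array 2 was left out, -0.024 for F+ array 1 and -0.010 for F+ array 3. Cxcl9, a chemokine that attracts T cells, was at 67.1, 66.1 and 63.6 in the F- group, at 59.5, 49.9 and 60.1 in the sham-operated group, and at 57.6, 59.2 and 64.9 in the F+ group. Its difference between the F- and sham-operated groups was 0.22 (adjusted p = 0.743, limma), with no overlap. Psme1, a proteasome activator subunit, was at 108.2, 103.2 and 102.4 in the F+ group and at 110.4, 113.0 and 114.5 in the sham-operated group, a difference of -0.11 (adjusted p = 0.633, limma). Irgm, a GTPase named here after its values were seen, had the largest difference of the list in the F+ against F- comparison, -0.19 (adjusted p = 0.671, limma). It was at 52.2, 47.0 and 47.7 in the F+ group and at 55.0, 61.4 and 50.9 in the F- group, which overlapped, and its highest value was on F- array 2.

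Marker genes of the cells that make or answer interferon moved between the arrays as well. All 12 cardiomyocyte genes were at 112.3 or more on every array, with array medians over all features of 33.4 to 33.9, and their summed level ran from 1807 to 1863 over the 9 arrays. Of the 14 macrophage markers 14 had a higher mean in the F+ than in the F- group (median 0.21) and 14 than in the sham-operated group (median 0.24), with 0 past the adjusted threshold and 7 and 10 at an unadjusted p under 0.05, against 7.41% and 7.4% of all features. Their summed level was 691 to 728 in the sham-operated group, 682 to 830 in the F- group and 830 to 873 in the F+ group. The lowest value was 30.3, for Itgam. The sum was highest, at 872.9, on F+ array 2, where the interferon response genes were lowest. In such bulk samples more cells of a type and more RNA per cell cannot be told apart.

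T and NK cell markers did not move as 1 list. Of the 16, 8 were higher and 8 lower in the F+ than in the F- group. With each array left out in turn, 7 to 13 were higher. Against the sham-operated group 10 were higher and 6 lower. Without overlap, 2 were higher between F+ and F- (all features 9.74%), and 1 was higher and 2 lower between F+ and sham (12.2%). Cd3d, a T cell gene, was at 21.1, 20.8 and 22.2 in the F+ group and at 20.6, 19.2 and 18.4 in the F- group. These did not overlap (adjusted p = 0.625, limma), while sham arrays reached 20.8. Cd4, which rat macrophages also carry, was at 83.6, 83.3 and 81.4 in the F+ group and at 74.3, 71.0 and 77.2 in the sham-operated group, a difference of 0.16 with no overlap (adjusted p = 0.620, limma). The NK cell receptor gene Klrb1a went the other way, at 35.5, 32.2 and 29.2 against 45.9, 39.9 and 42.1, a difference of -0.40 with no overlap (adjusted p = 0.60, limma), and Ncr1 differed by -0.13, also with no overlap (adjusted p = 0.666, limma). The summed level of the 16 was 531 to 562 in the sham-operated group, 518 to 586 in the F- group and 519 to 560 in the F+ group, with the highest sum on F- array 2. Their lowest value was 4.8, for Trat1. On F- array 2 the median deviation of the 16 markers was 0.11 and that of the 15 interferon gamma targets 0.075, the highest of the 9 arrays in both lists. The cytotoxic granule gene Nkg7 was at 80.3 there and at 59.7 to 72.8 on the other 8 arrays. Not all of the 16 were high on F- array 2. The T cell gene Cd3g, at 15.8, and Cd4, at 70.8, had their lowest value of the 9 arrays there. The part of these cells in the values of Irf1, Gbp5, Irgm and the other gamma targets was not tested. Dendritic cell, neutrophil and B cell markers had sums of 201 to 218, 160 to 172 and 113 to 122 over the 9 arrays. Sums of endothelial and fibroblast markers ran from 698 to 736 and from 747 to 843.

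**Figure D5:**
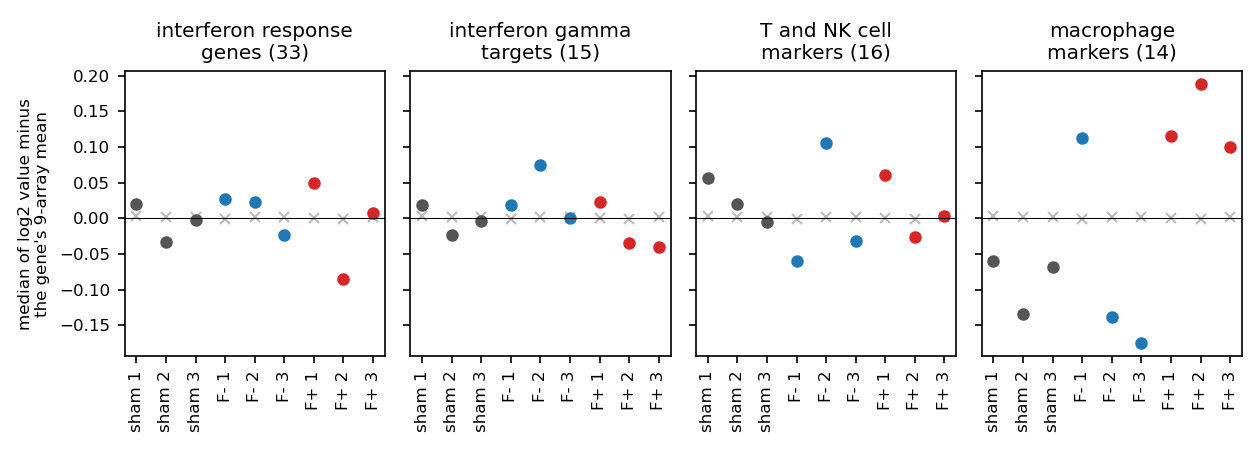
Median over each gene list of the log2 deposited value minus the gene's mean over the 9 arrays, 1 point per array (grey sham, blue F-, red F+), with the median of all features as grey crosses. The interferon response genes have their lowest point on F+ array 2 (-0.085), the gamma targets and T and NK cell markers their highest on F- array 2 (0.075 and 0.11), and the macrophage markers are above 0 on all 3 F+ arrays and F- array 1.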

How the data were processed

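RNA from right ventricles was measured on 9 Affymetrix Rat Gene 1.0 ST arrays, 3 per group (sham-operated, F- and F+). The study's methods name TRIzol and sense-strand cDNA, and the sample records Sepasol and biotinylated cRNA. The authors deposited 1 table with 1 signal intensity per feature and array, and the sources used here do not state its normalization or scale. No column was left out. Of 29215 features, 15310 carried 1 gene symbol, 323 several and 13582 were not listed, and only the first were named. All 33 members matched the RefSeq genes of GRCr8 by gene ID, with 0 symbols changed.

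Log2 values were fitted with limma 3.58.1 (R 4.3.3, with data.table, version 1.17.8, for reading), using lmFit and eBayes on the 9 arrays with a mean for every group and Benjamini-Hochberg adjustment over all features at 0.05. An exact permutation of 3 against 3 arrays (two-sided) cannot go below 0.1 and was not used. Promoters and figures were made with Python 3.11.15, pandas 2.3.3 and matplotlib 3.10.9. The fit was tested on simulated data whose shifts were larger than any member difference here. That test says nothing about finding differences of this size.

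Members, gene lists, roles and tests were chosen with earlier results of these data known. All 9 values were given for up to 3 members a role with the smallest unadjusted p, full statistics for the 4 with the smallest p in each comparison, and up to 2 genes of each pathway list with Ifnb1, Ifng, Ifnar1 and Ifngr1. Other members, Irgm, Ciita, Tlr7, Jak1, Socs1 and every marker gene named singly were named after their values were seen. Alternatives were features with 1 symbol only, the dimmest 33.3% of features left out, quantile normalization, median centring, square roots, untransformed values, the mean of a gene's features, a replicate block, a mean-variance trend, a fit of only 2 groups, and each array left out. Counts of pathway and marker genes under these were added after seeing the data. The RT-PCR data and cell cultures of the study were not analysed here.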

Additional observations from a re-analysis of the deposited data

How the results depend on the processing

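Over 19 alternatives, 10 of them other than leaving out 1 array, 0 members passed the adjusted threshold in any comparison (limma). The 12 differences given with full statistics kept their direction in 228 of 228 values, with adjusted p from 0.176 to 0.962 (limma). Of these values 110 equalled the main value, most of them because the alternative leaves the difference as it is by construction. The 12 were picked for small p-values in the same data, which favours a stable direction. Other differences did reverse when 1 array was left out, such as that of Mx1 between F+ and F- (-0.025 to 0.24). The median over the members did not keep its sign. With each array left out in turn it ran from -0.047 to 0.010 between the F+ and F- groups (above 0 only without F+ array 2), from -0.021 to 0.040 between the F- and sham-operated groups (below 0 without sham array 2, F- array 1 or F- array 2), and from -0.038 to 0.027 between the F+ and sham-operated groups (above 0 without sham array 1 or F+ array 2). The medians over all arrays were smaller than the spread between arrays, 0.046, and that of F+ against F- without F- array 3, -0.047, was not. On the square root scale they were -0.064, 0.035 and -0.023. The number of members that did not overlap ran from 1 to 8, from 3 to 9 and from 2 to 7 when each array was left out, with fewer arrays to overlap. The highest counts came without F+ array 1 (8 members, 18.0% of all features), without F- array 3 (9 members, 17.4%), and without F+ array 1 or F+ array 2 (7 members each, 25.1% and 18.7%). Over all features, the main count of 1 between the F+ and F- groups became 0 to 3.

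With the replicate block, 0, 0 and 0 members passed in the 3 comparisons, and 1, 2 and 2 had an unadjusted p under 0.05, as did 1926, 1568 and 1923 of all 29215 features. The arrays share only a number. Of 9 pairs of the same number in different groups 0 correlated above 0.1 in their deviations (r from -0.205 to 0.0532), and 1 of 9 arrays correlated best with its own number. The replicate block, the fit to 2 groups and the mean-variance trend leave differences, medians and overlaps as they are by construction, as does the mean of a gene's features, since each member had 1. The number of arrays limits precision, and no signal over background is given for these features.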
